A study of Mus musculus with 57 samples.

Results

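The comparison described here set the thymus of mice carrying the CALM-AF10 fusion gene (CA10, 4 arrays) against the thymus of wild-type mice (7 arrays), 11 of the 57 arrays of the series. The arrays were taken by their labels, as CA10 thymus 1 to 4 and wild-type thymus 1 to 7, and the comparison was repeated without CA10 thymus 3 and wild-type thymus 2 and 6, which left 3 against 5. The CA10 mice had the genotype vav-CALM-AF10, in which the vav promoter, active across blood cell lineages, drives the fusion. They showed no clinical signs of leukemia when the tissue was taken. Wild-type tissue came from littermates matched for age where that could be done, no mouse received a treatment, and ages in numbers were not used here. Another thymus group, 3 arrays of NHD13 mice without clinical signs (vav-NUP98-HOXD13, a fusion of NUP98 and HOXD13), entered the same model. Total RNA of whole thymus was measured on Affymetrix mouse arrays as RMA signals on the log2 scale, so a difference of 1 is a doubling of signal. Whether every array stands for its own mouse is not stated in the labels. The p-values therefore measure only the spread between these arrays, and their number limits the precision.

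The thymus receives progenitors from the marrow and turns them into T cells. Early thymocytes carry neither CD4 nor CD8, most cortical thymocytes carry both, and thymic epithelium supplies the signals for these steps. HOXA proteins are homeodomain transcription factors that act in blood stem and progenitor cells and are switched off as these cells mature. They bind DNA together with the cofactors MEIS1 and PBX3. The CALM-AF10 fusion joins most of CALM, an endocytic clathrin adaptor, to part of AF10, which binds the histone methyltransferase DOT1L, and is known in human leukemia, including T-cell leukemia, with high HOXA gene expression.

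The upstream sequences of 4 genes that the results turn on are shown to let a reader compare the HOXA genes and their cofactor with a granulocyte gene. Each is the 250 bases before the annotated start, read 5′ to 3′ on the gene's own strand, from RefSeq on GRCm38.p6. Hoxa9 (chr6:52227371-52227620, minus strand), Hoxa7 (chr6:52218574-52218823, minus strand), Meis1 (chr11:19018970-19019219, minus strand) and S100a8 (chr3:90668821-90669070, plus strand) follow, with motif matches in capitals.
Hoxa9: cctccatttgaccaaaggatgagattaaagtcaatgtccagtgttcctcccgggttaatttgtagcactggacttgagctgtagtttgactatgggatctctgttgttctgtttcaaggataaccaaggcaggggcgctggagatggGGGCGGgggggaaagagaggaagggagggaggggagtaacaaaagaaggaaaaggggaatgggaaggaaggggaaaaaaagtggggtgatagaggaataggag
Hoxa7: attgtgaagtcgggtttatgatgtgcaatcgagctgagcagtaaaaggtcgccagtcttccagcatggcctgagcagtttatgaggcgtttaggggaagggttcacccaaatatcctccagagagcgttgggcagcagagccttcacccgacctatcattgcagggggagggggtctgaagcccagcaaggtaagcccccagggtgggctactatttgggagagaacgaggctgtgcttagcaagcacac
Meis1: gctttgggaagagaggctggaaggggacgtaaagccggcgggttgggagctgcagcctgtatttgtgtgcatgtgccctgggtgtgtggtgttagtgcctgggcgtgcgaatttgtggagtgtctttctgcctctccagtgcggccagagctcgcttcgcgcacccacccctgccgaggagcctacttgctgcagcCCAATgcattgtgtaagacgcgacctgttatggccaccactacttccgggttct
S100a8: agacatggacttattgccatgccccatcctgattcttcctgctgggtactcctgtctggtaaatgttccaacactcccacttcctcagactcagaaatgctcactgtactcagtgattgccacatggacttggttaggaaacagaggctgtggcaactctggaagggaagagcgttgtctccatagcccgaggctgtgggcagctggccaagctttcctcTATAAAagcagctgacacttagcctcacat
The motifs searched, on both strands, were TGATTNAT for HOX with PBX, TGACAG for MEIS, the TATA box TATAAA, the CCAAT box CCAAT and the GC box GGGCGG. Hoxa9 held 1 GC box match, starting at −103 from the start, and Meis1 held 1 CCAAT match, at −54. S100a8 held a TATA box match at −30, and Hoxa7 held none of the 5. Over 32851 RefSeq upstream sequences of the same length the shares with a match were 2.82% for TGATTNAT, 15.9% for TGACAG, 12.4% for TATAAA, 33.8% for CCAAT and 32.7% for GGGCGG. A match describes the letters only.

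Before any comparison, 3 of the 11 arrays stood apart from their own group. The array labelled wild-type thymus 2 lacked the genes that define thymus. Its Rag1, the V(D)J recombinase of developing lymphocytes, was at 4.06 against 12.26 to 13.10 in the other 6 wild-type arrays and 3.81 to 4.09 in wild-type spleen. The chemokine gene Ccl25 of thymic epithelium was at 5.50 on that array against 11.99 to 12.83, and the B cell receptor gene Cd79a was at 10.04 against 6.74 to 8.09. CA10 thymus 3 kept thymus genes at lower levels, with Rag1 at 11.49 against 12.71 to 12.84 in the other CA10 arrays. Its mean over the 9 adipocyte genes tested was 11.72 against 6.63 to 9.69, and wild-type thymus 2 reached 11.78. On wild-type thymus 6 the upper quartile of signals was 7.03 against 7.39 to 7.68 in the other 10 arrays of the comparison. On wild-type thymus 2 and CA10 thymus 3 respectively, 1134 and 778 genes lay 2 or more log2 units from the median of the rest of their group, against 5 to 265 on the other 9 arrays. By this measure wild-type thymus 6, at 114, was less distant than CA10 thymus 4, at 265, which was kept. In the remaining 8 arrays Rag1 (12.60 to 13.10), Dntt (12.42 to 12.79) and the epithelial serine protease gene Prss16 (12.13 to 12.93) were at the high levels of thymus. By Xist and Y-linked signals, 2 of 4 CA10 and 5 of 7 wild-type arrays were male.

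**Figure D1:**
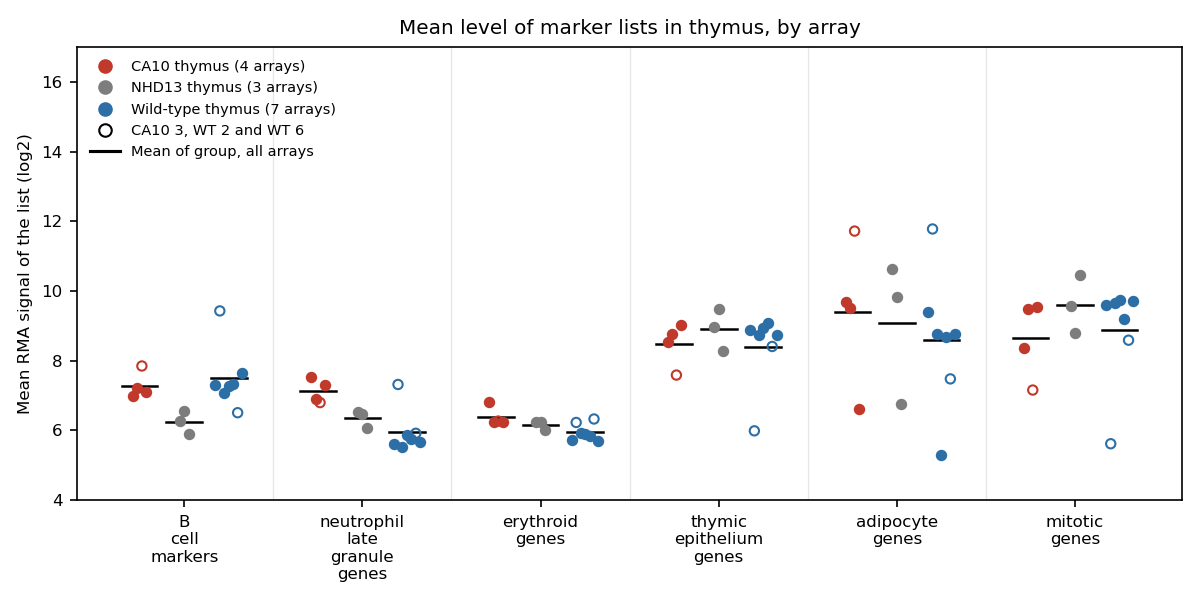
Mean RMA signal (log2, vertical axis) of 6 marker gene lists on each thymus array, with CA10 in red, NHD13 in grey and wild type in blue; open circles are CA10 thymus 3 and wild-type thymus 2 and 6, and black bars are group means over all arrays. The wild-type open circle at 5.99 for thymic epithelium and at 9.43 for B cells is wild-type thymus 2.

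With all 11 arrays, limma called no gene between CA10 and wild-type thymus. The smallest adjusted p among 15310 genes was 0.79, that of Hoxa9, so 0% of genes were called. At an unadjusted p under 0.05 there were 267 genes higher (1.74%) and 253 lower (1.65%) in CA10 thymus, 3.4% together. The 2 groups did not overlap on any array for 24 higher (0.157%) and 26 lower genes (0.17%). For 1 gene, 1 of the 330 arrangements of the array labels separates the groups in a given direction, a share of 0.00303. Neither count was above that share, so a lack of overlap alone does not mark a gene as changed. Without the 3 arrays that stood apart, limma called 6 genes, all higher in CA10 thymus (0.0392%), and 0 lower, with 531 and 1062 genes at an unadjusted p under 0.05. These were the HOXA transcription factor gene Hoxa9 and 5 genes of neutrophil granules or cytosol, Ngp, Camp, S100a9, S100a8 and Chil3. The 3 arrays were set aside by their expression values. CA10 thymus 3 was the lowest CA10 array for all 6 genes, and wild-type thymus 2 the highest wild-type array for the 5 neutrophil genes. Leaving them out therefore widens those differences. With CA10 thymus 3 kept and wild-type thymus 2 and 6 left out, limma called 0 genes.

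**Figure D2:**
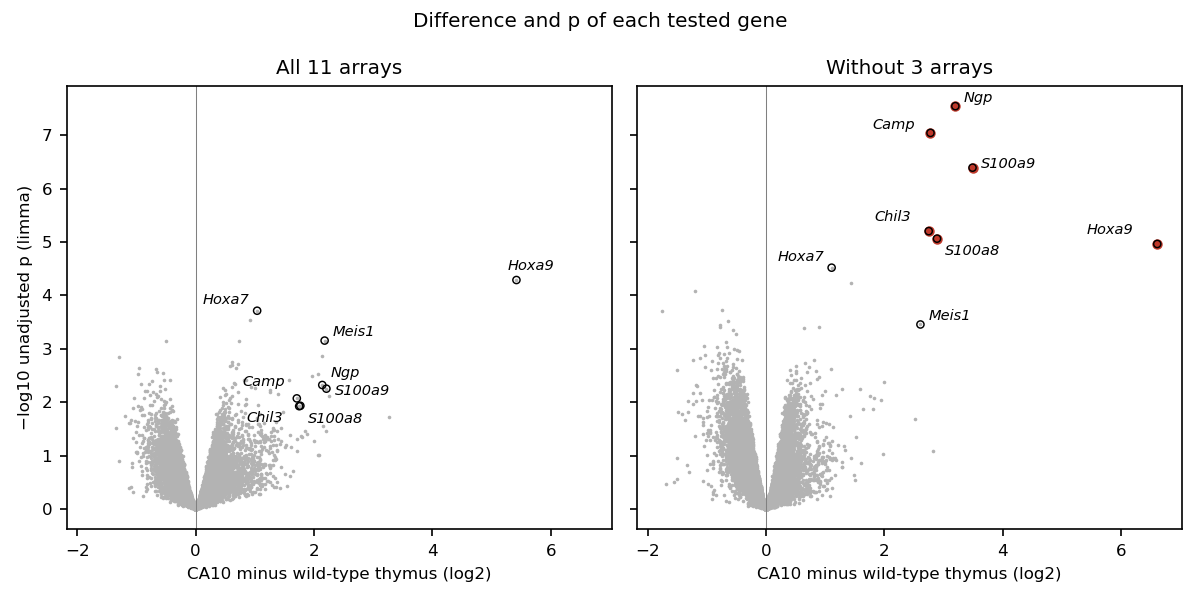
Difference between CA10 and wild-type thymus (log2, horizontal axis) against −log10 of the unadjusted p from limma (vertical axis) for each of 15310 genes, with all 11 arrays on the left and without 3 arrays on the right. Red points are the 6 genes with an adjusted p under 0.05, none on the left; Hoxa7 and Meis1 are circled without being called.

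Hoxa9, a driver of self-renewal in blood progenitors, had the smallest p of all genes with all 11 arrays, and the largest adjusted p of the 6 genes called in the repeat. Its signal was 11.16, 9.18, 5.78 and 11.16 in CA10 thymus 1 to 4. The wild-type thymuses lay between 3.59 and 4.26, with a median of 3.92. All 4 CA10 arrays were above all 7 wild-type arrays, and CA10 thymus 3 was the lowest of the 4. The difference was 5.42 ± 0.95 (log2, SE from limma) with an adjusted p of 0.79, and 6.61 ± 0.87 (adjusted p = 0.0278) without the 3 arrays. Leaving out CA10 thymus 3 alone gave 6.60 and a limma adjusted p of 0.01. With all 57 arrays in the model the difference was again 5.42 (SE 0.73), and its limma adjusted p was 2.14e-05. That model pools the spread over marrow, spleen, leukemia and thymus arrays. Its p-value therefore does not measure the spread among the thymuses, where the CA10 arrays had an SD of 2.54. An exact permutation test of the array labels, two-sided, gave p = 0.00303, the smallest that 330 arrangements allow. Such a test was run for 6 genes of the HOX group, and these p-values are not adjusted. The 6 genes were chosen with earlier results of these data known, which the test does not allow for. The second Hoxa9 probe set read 8.57, 7.21, 6.83 and 8.83 in CA10 thymus and 5.75 to 7.34 in wild type, where only wild-type thymus 6 (7.34) reached into the CA10 range. With both Hoxa9 probe sets averaged the difference was 3.54, and 4.44 without the 3 arrays, where it was not called (limma adjusted p = 0.119). By the second probe set alone, the brighter one in thymus, the difference was 1.66 (limma adjusted p = 0.971). Within the male arrays (2 against 5) the Hoxa9 difference was 6.25, and within the female arrays (2 against 2) it was 4.63.

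Hoxa7, a neighbour of Hoxa9 in the cluster, read 7.49, 7.21, 7.07 and 7.54 in CA10 thymus. Wild-type thymuses spanned 5.67 to 6.83 around a median of 6.36. The groups did not overlap, and the CA10 arrays were close together, CA10 thymus 3 included. The difference was 1.04 ± 0.21 (limma adjusted p = 0.97; exact permutation p = 0.00303, two-sided), and 1.11 ± 0.16 (adjusted p = 0.0663) without the 3 arrays. Hoxa10, which like Hoxa9 belongs to the posterior HOXA genes, read 5.80, 4.71, 3.48 and 7.61 in CA10 thymus against 3.35 to 3.74 in wild type. Thus 3 CA10 arrays were above all wild-type arrays and CA10 thymus 3 was at the wild-type level. Its difference was 1.85 ± 0.79 (limma adjusted p = 0.97; exact permutation p = 0.0182), and 2.51 ± 0.93 (adjusted p = 0.445) in the repeat. The second Hoxa10 probe set stayed between 3.53 and 4.09 on all 14 thymus arrays.

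Hoxa5 depended on the probe set. By the probe set with the higher mean it read 8.59, 7.64, 8.49 and 8.48 in CA10 thymus, and 6.56 to 9.72 in wild type with a median of 6.93. The highest wild-type values were wild-type thymus 6 at 9.72 and wild-type thymus 2 at 8.36, and the other 5 lay below all CA10 arrays. The difference was 0.86 ± 0.51 (limma adjusted p = 0.97; exact permutation p = 0.218), and 1.43 ± 0.23 (adjusted p = 0.112) without the 3 arrays. The other probe set gave 9.62, 8.15 and 9.36 in CA10 thymus 1, 2 and 4 and a slightly lower value in CA10 thymus 3, against 4.94 to 8.48 in wild type. There wild-type thymus 6 was the lowest and wild-type thymus 2 the highest of its group. With the mean of both probe sets and without the 3 arrays, limma called Hoxa5 at 2.22 (adjusted p = 0.0128).

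Hoxa2 differed by 0.58 ± 0.23 and Hoxa4 by 0.62 ± 0.50, with CA10 thymus 3 (6.47) and wild-type thymus 2 (6.39) as the high Hoxa4 arrays. Hoxa3 was at −0.12 ± 0.31 with wild-type thymus 6 at 7.59, and at 0.20 ± 0.17 in the repeat, so its sign depended on the arrays kept. Another Hoxa3 probe set read 6.47, 4.82, 5.93 and 6.78 in CA10 thymus against 4.59 to 5.24 in wild type, with 3 CA10 arrays above all wild-type arrays. Of 8 HOXA genes tested, 6 had a positive difference, 4 had an unadjusted p under 0.05 in that direction (1.74% of all genes), and 2 did not overlap (0.157%). The median over the 8 was 0.74, against −0.02 over all genes tested. In the repeat all 8 were positive, 5 did not overlap (2.63% of all genes did so in that direction) and the median was 0.87, against −0.05. The HOXB, HOXC and HOXD lists had medians of 0.18, 0.07 and −0.10 with all arrays, and 0.22, 0.18 and 0.05 in the repeat. In either case 1 of their 14 tested genes had an unadjusted p under 0.05.

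**Figure D3:**
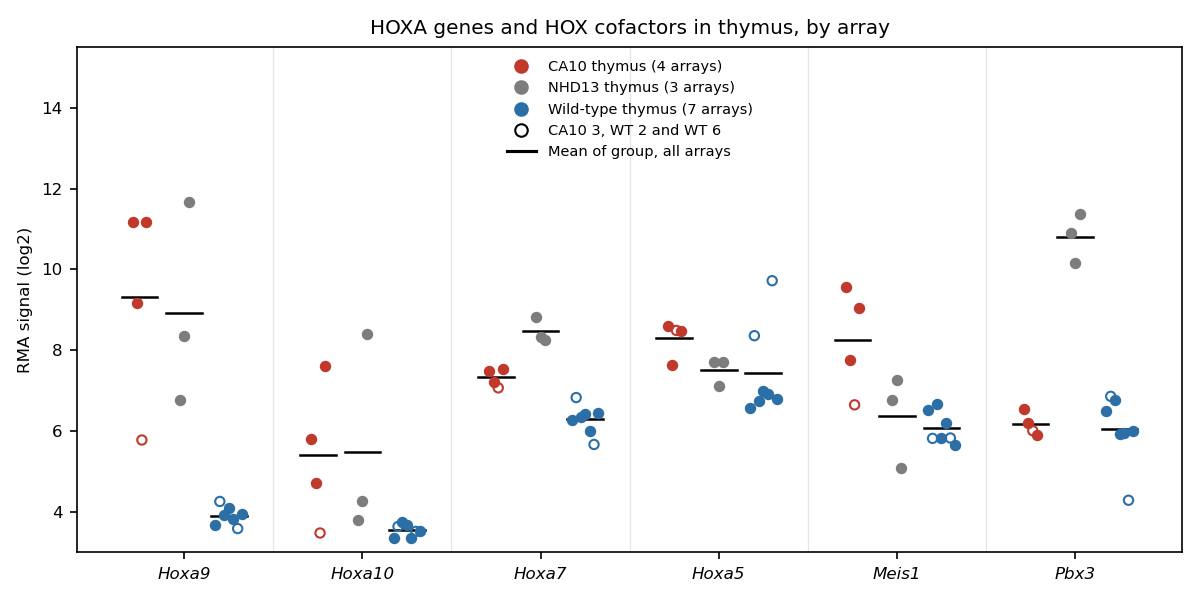
RMA signal (log2, vertical axis) of 4 HOXA genes, Meis1 and Pbx3 on each thymus array, with CA10 in red, NHD13 in grey and wild type in blue; open circles are CA10 thymus 3 and wild-type thymus 2 and 6, and black bars are group means over all arrays. Hoxa9 and Hoxa7 separate all CA10 from all wild-type arrays, whereas Pbx3 is high only in the NHD13 group.

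Meis1, the cofactor that joins HOXA9 in leukemia, read 9.57, 7.75, 6.65 and 9.05 in CA10 thymus. Wild-type thymuses lay between 5.65 and 6.68, with a median of 5.83. CA10 thymus 3 fell just below the highest wild-type array and the other 3 were above all of them. The difference was 2.18 ± 0.50 (limma adjusted p = 0.97; exact permutation p = 0.00606), and 2.61 ± 0.51 (adjusted p = 0.365) without the 3 arrays. By a second Meis1 probe set the CA10 arrays (7.13 to 9.25) were all above the wild-type arrays (5.08 to 6.54). A further, dimmer probe set overlapped, at 4.21 to 5.41 against 4.15 to 4.88. Pbx3, the other cofactor named above, showed no such shift. It read 5.90 to 6.55 in CA10 thymus and 4.29 to 6.86 in wild type, a difference of 0.12 ± 0.41 (limma adjusted p = 0.977; exact permutation p = 0.848). Of the 8 HOX cofactor genes tested, Meis1 had an unadjusted p under 0.05 with all arrays, and Meis1 and Pbx4 (0.57 in the repeat) without the 3. The medians were 0.09 and 0.08.

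Those genes of the fusion and its partners that were tested did not differ past the test. Mllt10, which encodes AF10, was at −0.33 ± 0.30 and Dot1l at 0.04 ± 0.17. Dimmer Mllt10 probe sets differed by 0.32, −0.23 and −0.14, so the sign depended on the probe set. Picalm, which encodes CALM, and the fusion transcript itself were not analysed here, so the arrays gave no check of the transgene. Of 10 genes of the fusion partners and the DOT1L complex, 0 had an unadjusted p under 0.05 in limma, and the median was −0.11. Bmi1, a Polycomb gene that lies near Mllt10 in the genome, was at −0.01 ± 0.21. None of 7 genes tested of its neighbourhood list passed an unadjusted p of 0.05, with a median of −0.01. Of 13 other leukemia genes linked to HOXA genes, such as Flt3 and Myc, 0 passed that level, and the median was 0.05.

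The other genes called in the repeat encode neutrophil proteins, which are made in maturing granulocytes. Ngp, neutrophilic granule protein, read 9.39, 8.57, 6.86 and 9.13 in CA10 thymus. In wild type it lay between 5.48 and 9.25, with a median of 5.89, and wild-type thymus 2 was the high array at 9.25 while the other 6 stayed at or below 6.31. Without the 3 arrays the difference was 3.20 ± 0.23 (limma adjusted p = 0.000437). With all arrays it was 2.14 ± 0.64 (adjusted p = 0.97). Camp, the cathelicidin antimicrobial peptide, read 8.90, 8.14, 6.02 and 8.36 in CA10 thymus and 5.36 to 8.26 in wild type, again with wild-type thymus 2 highest. It rose by 2.78 ± 0.22 in the repeat (limma adjusted p = 0.000693), and differed by 1.71 ± 0.56 with all arrays (adjusted p = 0.97).

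S100a9 and S100a8 encode the 2 chains of calprotectin, an abundant neutrophil cytosol protein. S100a9 read 11.11, 9.94, 7.84 and 10.28 in CA10 thymus. Wild type spanned 6.27 to 10.18 around a median of 7.05, and wild-type thymus 2 (10.18) stood within the CA10 range. It rose by 3.49 ± 0.33 (limma adjusted p = 0.00207) without the 3 arrays. S100a8 read 11.63, 10.43, 7.78 and 11.21 against 7.54 to 9.73, and its rise was 2.89 ± 0.37 (adjusted p = 0.0265). Chil3, a chitinase-like lectin of myeloid cells, read 8.26, 6.95, 4.69 and 6.67 against 4.06 to 7.09, and its rise was 2.75 ± 0.34 (adjusted p = 0.024). With all arrays the differences of S100a9, S100a8 and Chil3 were 2.21 ± 0.68, 1.75 ± 0.61 and 1.77 ± 0.61, and limma called none of them (adjusted p = 0.97 for each). For Ngp, Camp, S100a9, S100a8 and Chil3 alike, CA10 thymus 3 was the lowest of the 4 CA10 arrays. When 1 more of the 8 remaining arrays was left out in turn, Ngp, Camp and S100a9 stayed called in 8 of 8 fits, Chil3 in 3, S100a8 in 2 and Hoxa9 in 1. In those fits the limma adjusted p of Hoxa9 ranged from 0.042 to 0.33, and its difference from 6.28 to 7.27. Each of those fits also left out the 3 arrays that were set aside by their expression values. They therefore cannot test that choice of arrays.

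Across the 13 tested genes of the neutrophil late granule list, 8 had an unadjusted p under 0.05 with a higher level in CA10 thymus (1.74% of all genes did). The median difference was 1.18, and 1.32 in the repeat, where 9 of the 13 did not overlap (2.63% of all genes). The mean level of the list was 7.54, 6.91, 6.80 and 7.30 in CA10 thymus 1 to 4. It was 5.54 to 5.92 in 6 wild-type thymuses and 7.32 in wild-type thymus 2. Single genes varied: Ltf, the iron-binding lactoferrin, was highest in CA10 thymus 3 (10.21, against 6.55 to 7.23 in the other 3) and Lcn2 was even across the 4 (6.66 to 7.30). Cd177, a neutrophil surface protein gene, was the 1 member without overlap over all arrays (0.157% of all genes in that direction), with a difference of 0.86 ± 0.29. It read 6.21 in CA10 thymus 3 and 4.30 to 4.62 in the other 3, against 3.79 to 4.27 in wild type. Over the fits with 1 array left out, the repeat included, its difference was as low as 0.42. In bulk tissue, fewer cells of a type and less RNA per cell cannot be told apart, and the same holds for more of either.

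Primary granule genes, which are made earlier in granulocyte development, showed positive differences too. All 7 tested were positive with a median of 1.04 (6 positive and 1.07 in the repeat), and 3 had an unadjusted p under 0.05 (1.74% of all genes). The 7 include Myb, a transcription factor gene and not a granule gene. It read 9.88 to 12.44 in CA10 thymus, 6.13 in wild-type thymus 2 and 12.05 to 12.65 in the other wild-type arrays. Prtn3, proteinase 3, read 7.75, 5.60, 8.67 and 6.36 against 4.37 to 5.85 in wild type, a difference of 2.14 ± 0.54. In the repeat it was 1.75 ± 0.54, and 1.16 with CA10 thymus 1 left out as well. Mpo, myeloperoxidase, read 7.98, 5.67, 6.11 and 7.05 against 4.43 to 6.58 (1.33 ± 0.56), and Ctsg, cathepsin G, differed by 1.08 ± 0.44. Both were highest in CA10 thymus 1. In limma each of the 3 had an adjusted p of 0.97 with all arrays and of 0.436 to 0.438 in the repeat. The 19 monocyte and macrophage genes had a median of 0.38, and 1 had an unadjusted p under 0.05.

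**Figure D4:**
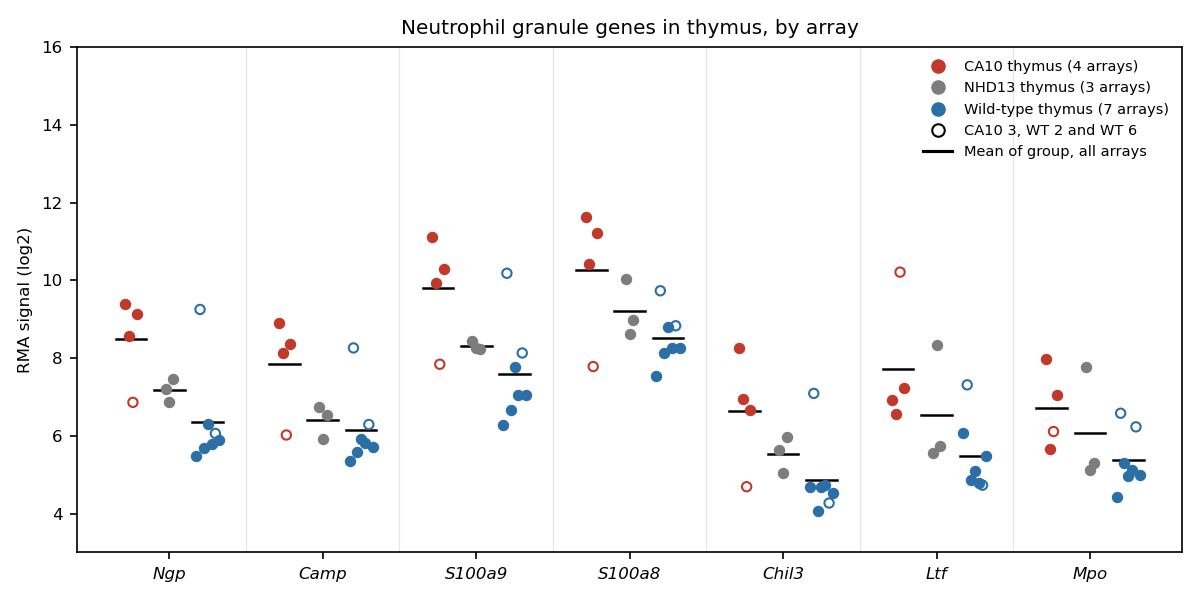
RMA signal (log2, vertical axis) of 7 granulocyte genes on each thymus array, with CA10 in red, NHD13 in grey and wild type in blue; open circles are CA10 thymus 3 and wild-type thymus 2 and 6, and black bars are group means over all arrays. For Ngp, Camp, S100a9, S100a8 and Chil3 the filled red points are above the filled blue points, while the open red point of CA10 thymus 3 is low and 1 open blue point, wild-type thymus 2, is high.

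Red cell genes had mostly positive differences. Of 14 tested, 3 had an unadjusted p under 0.05, with a median of 0.30, and 8 did in the repeat (3.47% of all genes), with a median of 0.56. Slc4a1, the band 3 anion exchanger, read 7.70, 6.46, 7.83 and 5.77 in CA10 thymus and 4.20 to 6.30 in wild type (1.57 ± 0.45). Klf1, the erythroid master regulator, read 7.31, 5.60, 5.96 and 5.44 against 4.41 to 6.80. CA10 thymus 1 had the highest erythroid list mean, at 6.83, while the other 3 CA10 arrays were at 6.23 to 6.27 and wild type at 5.69 to 6.33. The 17 stromal and vessel genes were all positive with a median of 0.82, but only 0.51 in the repeat. Their list mean was 10.03 in CA10 thymus 3 and 7.58 in CA10 thymus 4, against 7.04 to 9.47 in wild type. The adipocyte list ranged from 6.63 to 11.72 over the CA10 arrays and from 5.31 to 11.78 over wild type. Among the 8 arrays of the repeat, these levels overlapped between the groups (6.63 to 9.69 in CA10, 5.31 to 9.40 in wild type). The part of fat, vessel and blood cells in the granulocyte differences was not tested.

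Most T cell genes had negative differences, none of them called. Of the 15 T cell receptor and coreceptor genes tested, 13 were negative, with a median of −0.38, and 1 had an unadjusted p under 0.05 (1.65% of all genes). In the repeat 14 were negative, with a median of −0.46, 5 passed that level (6.94% of all genes) and 6 did not overlap (6.04%). Cd2, an adhesion receptor of T cells, was the 1 gene with all arrays. It read 8.38, 9.80, 7.76 and 9.41 in CA10 thymus and 8.78 to 10.50 in wild type, a difference of −1.10 ± 0.44 (limma adjusted p = 0.97), and −1.06 ± 0.39 in the repeat. The coreceptor genes Cd4 and Cd8a differed by −0.33 ± 0.49 and −0.17 ± 0.82. In the repeat the values were −0.43 ± 0.27 and −0.53 ± 0.55. Rag1 and Dntt, the polymerase that adds bases at receptor gene joints, were at 0.01 ± 0.29 and 0.08 ± 0.15 in the repeat. Their values with all arrays, 1.00 ± 1.37 and 0.66 ± 1.11, rested on wild-type thymus 2, and without that array alone they were −0.23 and −0.32. For Dntt this holds for the brightest probe set. A dim Dntt probe set differed by 1.65 with all arrays, at 6.01 to 10.27 in CA10 thymus against 3.92 to 7.85 in wild type. Another differed by 0.59, at 10.20 to 12.65 in CA10 thymus against 4.79 to 12.41 in wild type, where the mean was 11.12. Whether these rested on wild-type thymus 2 was not tested.

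The Gimap genes encode GTPases of lymphocytes, and some of them help maturing T cells survive. All 8 were negative, with a median of −0.64 and −0.48 in the repeat, and 2 had an unadjusted p under 0.05 (1.65% of all genes), against 0 in the repeat. Gimap5 read 6.85, 6.83, 6.27 and 6.84 in CA10 thymus against 7.03 to 7.63 in wild type (−0.57 ± 0.26). It did not overlap, as was so for 0.17% of all genes in that direction. Gimap3 read 8.52, 9.35, 7.92 and 8.90 against 8.86 to 10.36 (−0.91 ± 0.34). The list mean was 7.65 in CA10 thymus 3 and 8.58 to 9.12 in the other CA10 arrays, against 8.80 to 9.49 in wild type. The chemokine genes Ccl22 and Ccl17, made by dendritic cells, were also below wild type on every array (0.17% of all genes). Ccl22 read 7.41, 7.64, 6.14 and 7.71 against 7.82 to 8.69 (−0.92 ± 0.28, and −0.52 ± 0.15 in the repeat). Ccl17 read 5.42 to 5.59 against 5.65 to 6.46 (−0.46 ± 0.19). Among the 12 dendritic cell genes tested these were the 2 at an unadjusted p under 0.05 (1.65% of all genes), and the list median was −0.27. In the repeat Ccl22 was the 1 such gene, 6 of the 12 were negative and the median was −0.04.

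The genes with the smallest p among lower genes were Gpr83, Slamf6, Trib2, Zfp93, Spin2c and Zfp827, none of them called (limma adjusted p = 0.97 for each). Gpr83, a receptor gene, read 5.89 to 6.06 in CA10 thymus and 6.32 to 6.56 in wild type without overlap (−0.50 ± 0.12). Slamf6, a receptor of T and NK cells, read 7.06, 7.91, 6.66 and 8.36 against 8.04 to 9.41 (−1.30 ± 0.33). Trib2, a pseudokinase gene, differed by −0.96 ± 0.26, and the other 3 by −0.67 to −0.55. Among higher genes, Trim10 (5.62 to 6.29 against 4.55 to 5.28) and the keratin gene Krt42 (8.37 to 8.90 against 7.42 to 8.26) also did not overlap. Of all genes, 0.157% in the higher and 0.17% in the lower direction did not overlap. Of the cell division genes, 18 of 19 mitotic genes were negative with a median of −0.18, and 19 of 19 with a median of −0.44 in the repeat. None of the 19 was called. Their mean was 8.38, 9.49, 7.16 and 9.55 in CA10 thymus, and 5.62 in wild-type thymus 2 against 8.59 to 9.74 in the other wild-type arrays. Of 20 thymic epithelium genes, 1 had an unadjusted p under 0.05, and the median was 0.16, or −0.10 in the repeat.

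Against NHD13 thymus, limma called 33 genes, 29 lower (0.189%) and 4 higher (0.0261%) in CA10. That count was 2 in a model of these 2 groups alone and 526 without the 3 arrays, and leaving out 1 array at a time gave 11 (without CA10 thymus 2) to 86 (without wild-type thymus 6). Between NHD13 and wild type, 117 genes (0.764%) were called. This comparison uses the same CA10 arrays as the one with wild type. Pbx3 read 10.91, 10.15 and 11.37 in NHD13 thymus and was lower in CA10 by 4.65 ± 0.49 (log2, limma adjusted p = 0.000937). Genes of the HOXC cluster were lower in CA10 as well, with Hoxc8 at −2.57 ± 0.23 (adjusted p = 0.000125), Hoxc4 at −3.15 ± 0.47 (adjusted p = 0.0113) and Hoxc6 at −2.38 ± 0.33 (adjusted p = 0.00806). These 3 were not called with only the 2 groups in the model (limma adjusted p = 0.0695, 0.274 and 0.261) or with the replicate block (0.0924, 0.221 and 0.22), while Pbx3 and Klhl4 were. Klhl4 read 8.94 to 9.78 in NHD13 and 3.58 to 4.40 in CA10 thymus, the largest difference at −5.43 ± 0.46 (adjusted p = 0.000125). The genes higher in CA10 were Ighm (2.37 ± 0.37), the immunoglobulin mu chain, Tesc, Bcl6 and Tnfrsf4, named here because they are few. For these 4 the CA10 means (12.42, 8.03, 8.73 and 7.81) were closer to the wild-type means (12.33, 8.33, 9.32 and 7.93) than to the NHD13 means (10.05, 6.07, 7.14 and 6.69).

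Hoxa9 did not differ past the test between the 2 transgenes. It read 6.78, 8.35 and 11.66 in NHD13 thymus, within the CA10 range of 5.78 to 11.16, and the difference was 0.39 ± 1.16 (limma adjusted p = 0.931). Hoxa7 was higher in NHD13, at 8.26 to 8.82, than on any CA10 array, with a difference of −1.14 ± 0.25 (adjusted p = 0.106). Meis1 was at 5.09 to 7.27 in NHD13 thymus, and its difference was 1.88 ± 0.62 (adjusted p = 0.326). The late granule list means were 6.06 to 6.54 in NHD13 thymus, below all 4 CA10 arrays. They were above the wild-type arrays (5.54 to 5.92) other than wild-type thymus 2 (7.32). Between CA10 and NHD13, 0 of the 13 genes were called in either direction. For NHD13 minus wild type, limma called Hoxa9 (5.03, adjusted p = 0.0403) and Hoxa7 (2.18, adjusted p = 0.000344). It also called Trim10 (1.05, adjusted p = 0.0343) and Gpr83 (−1.09, adjusted p = 0.000775), but not Meis1 (0.30, adjusted p = 0.895). Cd2 (5.63 to 7.41) and Ccl22 (5.46 to 5.92) were lower in NHD13 thymus than on any CA10 array.

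The CA10 effect in thymus was set against that in spleen (5 CA10 arrays without clinical signs, 2 wild-type) and in lineage-negative marrow, which is marrow depleted of mature blood cells (3 against 3). With all 57 arrays in 1 model, limma called 0 genes for either difference of effects, with 259 and 186 genes at an unadjusted p under 0.05. The Hoxa9 difference was 5.42 in thymus, 4.46 ± 0.97 in spleen and 2.16 ± 0.95 in lineage-negative marrow. The thymus effect exceeded that in spleen by 0.96 ± 1.21 and that in lineage-negative marrow by 3.26 ± 1.19 (limma adjusted p = 1 for both). Wild-type lineage-negative marrow already had Hoxa9 at 7.16 to 8.24, whereas wild-type spleen (3.96 and 4.27) and thymus (3.59 to 4.26) were near each other. CA10 Hoxa9 was at 7.89 to 9.70 in spleen and 9.91 to 10.03 in lineage-negative marrow, within the span of the CA10 thymuses.

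The Meis1 difference was 2.18 in thymus, 2.10 ± 0.66 in spleen and 1.01 ± 0.64 in lineage-negative marrow. The thymus effect differed from that in spleen by 0.07 ± 0.82 and from that in marrow by 1.16 ± 0.81 (limma adjusted p = 1 for both). Hoxa7 differed by 1.04, 0.48 ± 0.33 and 0.27 ± 0.32, and Hoxa10 by 1.85, 0.67 ± 0.73 and 2.06 ± 0.71. For Ngp, levels in wild-type spleen (11.17 and 11.36) were above every thymus array (5.48 to 9.39). The neutrophil genes had higher CA10 than wild-type means in lineage-negative marrow too, with overlapping ranges. These means were 9.21 against 7.32 for Ngp, 8.25 against 6.78 for Camp and 9.87 against 7.41 for S100a9. They were 10.17 against 7.92 for S100a8 and 7.34 against 5.09 for Chil3. In spleen the CA10 means were also higher, such as 11.96 against 11.27 for Ngp. RNA degradation, read as the excess of the Gapdh 3′ over the 5′ probe set, was highest in CA10 spleen 1 at 2.09, against −0.11 to 0.63 in the thymuses. The upper quartile of signals was 7.02 in CA10 and 7.07 in wild-type lineage-negative marrow 3, against 7.26 to 7.39 in the other 4 marrow arrays. Their part in these differences was not tested.

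**Figure D5:**
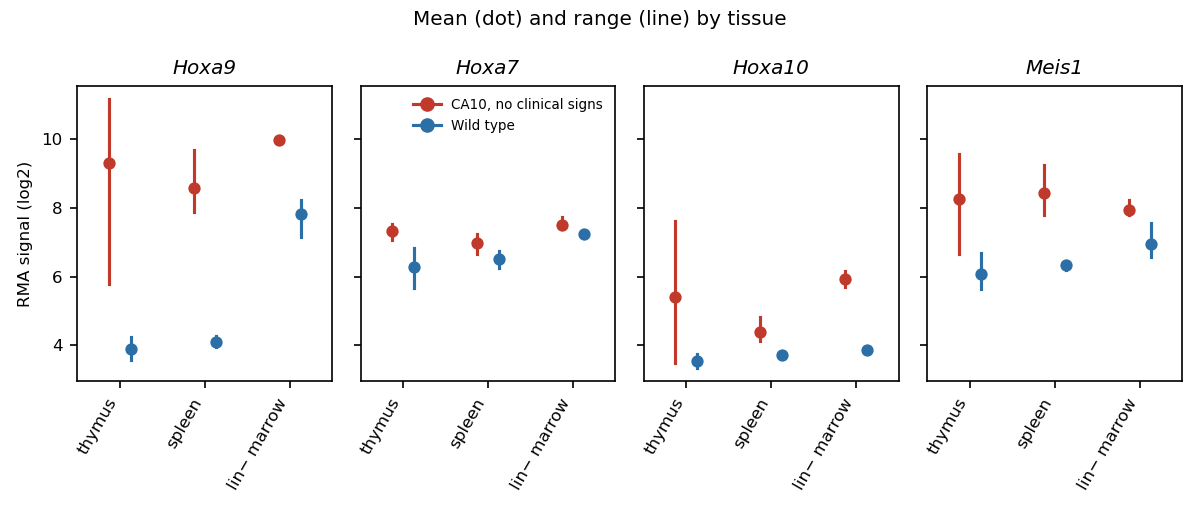
RMA signal (log2, vertical axis) of Hoxa9, Hoxa7, Hoxa10 and Meis1 in thymus, spleen and lineage-negative (lin−) marrow, where dots are group means and lines run from the lowest to the highest array of CA10 without clinical signs (red) and wild type (blue). The CA10 Hoxa9 line of thymus runs from 5.78 to 11.16, and wild-type Hoxa9 is highest in lineage-negative marrow among these 3 tissues.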

How the data were processed

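Expression was read from the table of RMA signals on the log2 scale that the authors deposited. RMA is named in the submitters' processing notes, and its version is not given in the sources used here. Per the labels, labelling started from 100 ng of RNA. The table held 44943 probe sets on 57 arrays, with array medians from 5.44 to 5.85.

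Of the probe sets, 34842 named 1 gene in the platform annotation, 931 several and 9106 none, and 64 were controls. For a gene with several probe sets, the brightest on average across the 57 arrays stood for it. Genes above the 40th percentile of the array on at least 3 arrays were tested, 15310 of 18165. Group means of the 14 thymus arrays were fitted with limma 3.58.1 in R 4.3.3 (lmFit, eBayes), and Benjamini-Hochberg adjustment covered the 15310 genes; an adjusted p under 0.05 was a call. Errors beside differences are limma's standard errors. The comparisons with spleen and marrow used all 57 arrays.

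The members and the 37 gene lists were chosen with earlier results of these data known. Named genes were up to 12 called rises and 12 called falls without overlap or, where fewer than 6 were called in a direction, the 6 with the smallest p. To these were added fixed HOX, fusion partner, thymocyte and epithelium genes, up to 4 called members of a list, and sex-linked genes. Picalm and Ddx3y were not analysed here. Other named genes (Hoxa2, Hoxa3, Hoxa4, Hoxc4, Hoxc6, Hoxc8, Pbx4, Klhl4, Reep1, Angpt1, Morc1, Ltf, Cd177, Lcn2, Mpo, Ctsg, Slc4a1, Car1, Klf1, Gimap3, Gimap5, Ccl22, Ccl17, Cd2, Cd79a, and the genes called against NHD13) were chosen after their values were seen. Lists are described by counts and medians only.

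Upstream sequences came from RefSeq, where all 10 genes searched were matched. Alternatives were other filters, probe set rules, normalization and model settings, covariates and arrays left out. In simulated data with 15310 genes and these arrays, a log2 change of 1 was recovered for 48% of changed genes and a change of 2 for 89%. The simulated noise was independent between genes and arrays, so it held no arrays that stood apart across many genes. These shares therefore check the fit only, and do not tell how many real changes the comparison missed.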

Additional observations from a re-analysis of the deposited data

Results flagged for a closer look

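Several arrays lay far from the rest of their group, with a gap to the nearest array above Dixon's limit for the group size. There were 19 such values in 102 groups of arrays examined. Chance gives about 1 in 20 for independent groups that were not selected. Here some of the genes were chosen after their values were seen, and all genes share the same arrays. The count therefore cannot be set against that rate. Wild-type thymus 2 was the array in 9 of them. It was low for Cd4 (8.74), Cd8a (7.54), Rag1 (4.06) and Dntt (5.63), and high for Ngp (9.25), Camp (8.26), Chil3 (7.09), Hoxa4 (6.39) and Cd79a (10.04). CA10 thymus 3 was low for Rag1 (11.49), Dntt (10.62) and Gimap5 (6.27), and high for Hoxa4 (6.47) and Cd177 (6.21). Wild-type thymus 6 was low for Pbx3 (4.29) and high for Hoxa3 (7.59). CA10 thymus 1 was high for Dot1l (8.65) and Car1 (5.73), and CA10 thymus 2 was low for Hoxa5 (7.64).

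Limma's test of CA10 against NHD13 thymus called 33 genes, 4 of them higher in CA10. Of these 33, the 7 genes followed through all settings were lower in CA10. Pbx3 was at −4.65, Hoxc4 at −3.15, Hoxc6 at −2.38, Hoxc8 at −2.57 and Klhl4 at −5.43 on the log2 scale. Reep1 was at −2.84 (limma adjusted p = 0.032) and Angpt1 at −2.09 (limma adjusted p = 0.0113). Reep1 was not called in 15 of 28 other settings (limma adjusted p up to 0.436) and Angpt1 in 4 (up to 0.208).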

How the results depend on the processing

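Over 58 gene values and 2484 recomputed values, 2411 kept their direction and 73 did not, and 46 genes never changed direction. The 0 calls between CA10 and wild-type thymus became 1 with all 57 arrays, 5 with array weights, and 6 without the 3 arrays. They were also 6 without wild-type thymus 2 and CA10 thymus 3, and stayed at 0 without wild-type thymus 2 and 6. Without the 3 arrays the count was 8 with only these 2 groups in the model (7 higher, 1 lower), 7 with array weights, 7 with sex as a covariate, and 6 with no filter, with the mean of probe sets and with quantile normalization. Leaving out 1 of all arrays at a time gave 0 to 1, and leaving out 1 more in the repeat gave 3 to 13, with 4 lower genes among the 13 (without CA10 thymus 2). The array weights stopped before convergence. Morc1 was the lower gene with only these groups (−1.76), with weights and with sex.

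Same-numbered arrays were not shown to be paired, with correlations of 0, −0.57, −0.36 and 0.74. With the replicate block 0 genes were called, with and without the 3 arrays. The block gave 2 calls against NHD13, and 1 for each difference between tissues.

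The 33 calls against NHD13 became 2 with only those groups, 217 with all 57 arrays, 2419 with array weights, 18 with Gapdh 3′ minus 5′ as a covariate and 526 without the 3 arrays, and 11 to 86 with 1 array left out. With 1 array left out, the tissue differences gave 0 to 0 (spleen) and 0 to 1 (marrow) calls.

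Pbx3 turned negative with array weights (−0.02), the replicate block (−0.35) and without wild-type thymus 2 and 6 (−0.07). Without the 3 arrays it was −0.02, also with only these groups, array weights or no filter, −0.01 with sex and −0.04 with the mean of probe sets. Hoxa3 turned positive with the mean of probe sets (0.29), array weights (0.21), the block (0.03) and without wild-type thymus 2 and 6 (0.21). Without the 3 arrays it was 0.20, also with only these groups or no filter, 0.22 with weights, 0.19 with sex, 0.43 with the mean of probe sets, 0.21 with quantile normalization and 0.17 with the block. Bmi1 was 0.00 with quantile normalization and 0.05 without wild-type thymus 2 and CA10 thymus 3. Without the 3 arrays Bmi1 was 0.03 with quantile normalization and 0.10 with the block, and Dot1l was −0.03 with weights. Without wild-type thymus 2 and 6, Rag1 was −0.32, Dntt −0.44 and Cd79a 0.15, and Rag1 was −0.01 without the 3 arrays under quantile normalization. With the block, Cd8a was 0.16 and Foxn1 0.00. With sex as a covariate Eif2s3y was 0.19, and 0.02 without the 3 arrays. With 1 array left out the ranges were −0.18 to 0.26 for Pbx3, −0.21 to 0.33 for Hoxa3, −0.19 to 0.10 for Bmi1, −0.08 to 0.18 for Dot1l and −0.69 to 0.02 for Cd4. They were −0.77 to 0.25 for Cd8a, −0.23 to 1.33 for Rag1, −0.32 to 1.18 for Dntt, −0.52 to 0.02 for Foxn1, −0.47 to 0.27 for Cd79a, −0.71 to 2.44 for Xist and −1.82 to 1.14 for Eif2s3y. Beyond arrays left out, the cause of these changes was not tested.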
